A study of Homo sapiens with 16 samples.

Results

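The chromatin landscapes compared here come from the same control cells and are the sites bound by the G-quadruplex antibody BG4 and the sites of the histone mark H3K4me3. The members are all peaks of the 2 deposited lists for cells treated with a control siRNA (siControl), namely 3332 BG4 peaks and 18596 H3K4me3 peaks, together 21928 of the 31050 peaks in the 4 lists of the series. An overlap of 1 base was enough to pair a BG4 peak with an H3K4me3 peak. The cells were A549, an established human lung carcinoma line labelled as epithelial, transfected with 71 nM siControl for 48 hours. Both assays were CUT&Tag, in which an antibody bound to chromatin brings in a tagging enzyme, Tn5, that marks DNA close by. Each of the 4 groups has 4 labelled replicates, and the labels do not say whether these were separate cultures. BG4 lists made in the same way after siRNA against BAZ2A (siBAZ2A) or BAZ2B (siBAZ2B), also with 4 labelled replicates each, at the same dose and time, served here only as further measurements of BG4 sites, and 92.9% and 90.4% of their peaks overlapped the H3K4me3 list.

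A G-quadruplex (G4) is a fold of guanine-rich single-stranded DNA in which guanines from several runs stack in planar layers, and BG4 is an antibody fragment that recognises the folded form. H3K4me3, trimethylation of lysine 4 on histone H3, marks the nucleosomes around the start sites of active genes, where the start itself is often depleted of nucleosomes. In human cells G4 signal is known from open, GC-rich promoters. Per the labels, BG4 was detected through an anti-Flag and then an anti-mouse antibody, and H3K4me3 through an anti-rabbit antibody, so the 2 assays differ in more than their target. Loci are named by their hg19 position, because genes and sequences of that build were not analysed here. For the same reason the labelled cell type was not checked against marker genes. Where a G4 site, peak or summit is named below, a called BG4 peak is meant. Whether its DNA can form a G4 was not checked.

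Each deposited list merges the replicates of its group into 1 set of peaks, with the borders, summit and scores of a single run. The peak names number that run 5 for siControl BG4 and 6 for siControl H3K4me3, which matches none of the 4 labelled replicates, so it is not known which replicate gave these values. Nothing below therefore has a replicate error, no p-value is given, and the 95% Wilson intervals in parentheses cover counting error over peaks only. Depth per library was not analysed here. The number of peaks limits the precision: a share of all BG4 peaks is known to within about 1 percentage point, and a share of a decile of the H3K4me3 peaks to within about 2. The lists hold 2 scores per peak, both the authors' own. The fold enrichment is the height of the peak over its local background, and −log10 q grows with the strength of evidence for the peak, so that a high value can come from a moderate fold on many reads. Among H3K4me3 peaks the 2 scores were only loosely related (Spearman's rho 0.57 across 18596 peaks), and −log10 q went with width (rho 0.63) while fold did not (rho -0.03).

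Most G4 sites overlapped H3K4me3 regions, and took up a small part of the bases under the mark. Of the BG4 peaks, 89.9% (2996 of 3332, 88.8 to 90.9) overlapped an H3K4me3 peak, and 16.0% of H3K4me3 peaks (2983 of 18596, 15.5 to 16.6) overlapped a BG4 peak. The BG4 list covered 2.09 Mb and the H3K4me3 list 21.5 Mb, and the 1.86 Mb they had in common were 89.1% of the BG4 bases and 8.66% of the H3K4me3 bases. Where a BG4 peak touched several H3K4me3 peaks it was paired with the one of longest overlap. In 77.2% of the 2996 pairs (75.7 to 78.7) the BG4 peak lay with both borders inside the H3K4me3 peak. In 20.9% (19.4 to 22.4) it reached past 1 border, and in 1.94% (1.50 to 2.49) it covered the whole H3K4me3 peak. The H3K4me3 peak was the wider one in 95.3% of pairs (94.4 to 96.0), with a median ratio of widths of 2.24 (quartiles 1.66 and 3.05).

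The strength of the H3K4me3 evidence ordered its peaks by how often they carried a G4 site. From the lowest to the highest decile of −log10 q, the share of H3K4me3 peaks with a BG4 peak rose from 3.33% (2.61 to 4.25) to 40.3% (38.1 to 42.6), and it was higher in every decile than in the one before. The intervals of the 2 end deciles are far apart. By width the share rose from 4.68% (3.81 to 5.73) in the narrowest decile, with a median of 370 bp, to 32.9% (30.8 to 35.1) in the widest, with a median of 2090.5 bp. By fold there was no such order, since the share was 11.3% (9.98 to 12.9) in the lowest decile, 21.2% (19.4 to 23.2) in the fourth and 14.1% (12.6 to 15.8) in the highest. The end deciles by fold also depended on which peaks were kept, with 3.06% and 9.09% for the stronger 50% of BG4 peaks and a reversed 14.5% and 12.7% at −log10 q of at least 5 in both lists. The highest decile by fold held rather narrow peaks (median 940 bp), against 1317 bp in the highest decile by −log10 q.

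The knockdown BG4 lists, which were not used to choose anything here, gave the same order against the same H3K4me3 peaks. Background shares were 21.1% of H3K4me3 peaks with a siBAZ2A BG4 peak and 23.4% with a siBAZ2B BG4 peak. By −log10 q, the share went from 5.32% (4.39 to 6.44) to 49.7% (47.4 to 51.9) for siBAZ2A. For siBAZ2B it went from 6.24% (5.23 to 7.43) to 55.7% (53.4 to 57.9). By fold the highest decile stood at 20.5% (18.8 to 22.4) and 23.9% (21.99 to 25.9), close to the background of each list. The 3 lists share the H3K4me3 peaks, so this repeats the BG4 side of the measurement only, and in knockdown cells.

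**Figure D1:**
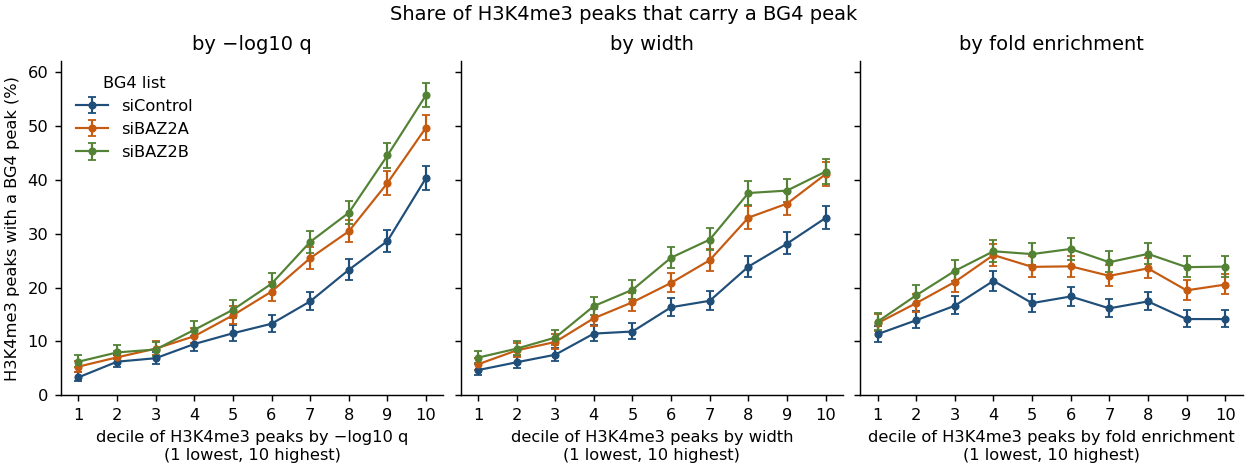
Share of H3K4me3 peaks that carry a BG4 peak (y axis, percent) in deciles of H3K4me3 peaks by −log10 q, width and fold enrichment (x axes), for the 3 BG4 lists; bars are 95% Wilson intervals. In siControl the share climbs from 3.33% to 40.3% over −log10 q and from 4.68% to 32.9% over width, and stays between 11.3% and 21.2% over fold.

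The share was higher at high −log10 q across widths, and it was higher with width mainly among the wider peaks. Among the H3K4me3 peaks of the widest quintile, the share with BG4 was 9.83% (7.30 to 13.1) in the second quintile of −log10 q, 19.3% (17.2 to 21.7) in the third, 32.2% (29.6 to 34.8) in the fourth and 54.1% (50.7 to 57.4) in the highest. The rise with −log10 q was therefore present among peaks of similar width. Within the highest quintile of −log10 q, the share was 26.7% of 15 narrowest peaks, 22.4% (18.1 to 27.3) of 313 of the next width and 23.5% (21.1 to 26.1) at middle width. Only above this did it rise, to 33.9% (31.5 to 36.5) in the next quintile and 54.1% in the widest. In the third quintile of −log10 q, the widest peaks stood at 19.3% and the other widths between 8.47% and 10.0%. Within the lowest quintile of −log10 q, width made little difference, with 4.39% (3.67 to 5.24) of 2622 narrow peaks and 6.21% (4.79 to 8.02) of 869 peaks of the next width. Few peaks were both wide and weak: the widest quintile held 22 peaks of the lowest −log10 q, and 1 of them carried BG4. How far the length of a peak by itself sets its chance of a 1-base overlap was not tested.

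At high −log10 q, the share with BG4 was lower where the fold was higher. Within the highest quintile of −log10 q, the share of H3K4me3 peaks with BG4 was 63.1% (57.8 to 68.1) of 336 peaks in the second quintile of fold, 43.5% (40.0 to 47.0) in the third, 34.2% (31.4 to 37.1) in the fourth and 22.97% (20.9 to 25.2) of 1506 peaks in the highest. The 20 peaks of the lowest fold quintile there carried BG4 in 18 cases. Quintiles 3 and 4 of −log10 q had the same direction, from 25.8% (22.6 to 29.2) at the lowest fold to 6.78% (5.28 to 8.67) at the highest, and from 55.6% (48.7 to 62.2) to 9.62% (7.88 to 11.7). The lowest quintile did not, with 3.97% (3.20 to 4.91) at the lowest fold and 6.29% (5.08 to 7.77) at the next, and the second was nearly flat, between 7.29% and 10.3%. At like width the direction was the other way or absent. From the lowest to the highest fold quintile, the share went from 4.19% (3.33 to 5.27) to 8.997% (6.54 to 12.3) among the narrowest peaks, from 7.23% (5.45 to 9.54) to 11.1% (9.51 to 12.9) in the second width quintile, from 12.6% (8.88 to 17.4) to 15.6% (13.9 to 17.4) in the third and from 16.0% (11.7 to 21.6) to 24.2% (20.03 to 29.0) in the fourth. Among the widest peaks it was 29.0% (26.3 to 31.9) at the lowest fold and 33.8% (26.6 to 41.8) at the fourth, and the highest fold held only 6 such peaks.

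**Figure D2:**
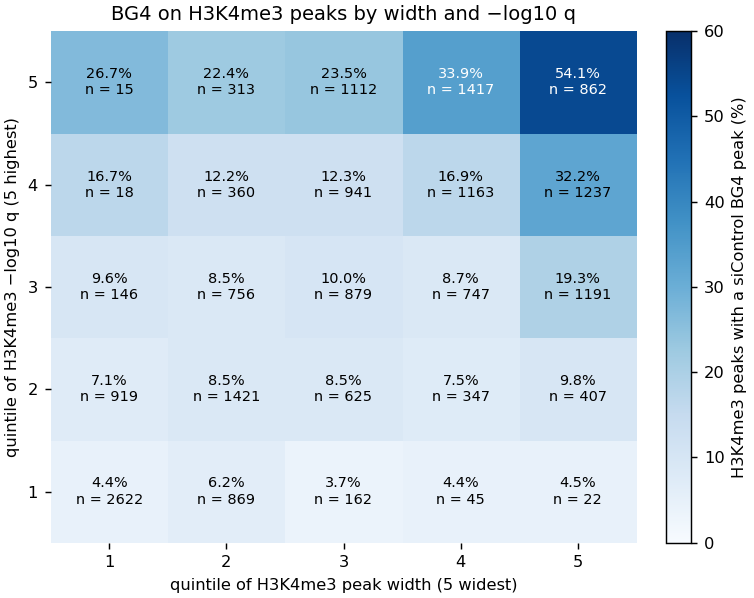
Share of H3K4me3 peaks with a siControl BG4 peak (colour and upper number in each cell, percent) by quintile of width (x axis) and of −log10 q (y axis), with the number of H3K4me3 peaks as n. The cell of the widest peaks with the highest −log10 q stands at 54.1%, and the cells of the lowest −log10 q quintile stand between 3.70% and 6.21%.

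H3K4me3 peaks with a G4 site differed from those without in −log10 q and in width but not in fold. The median −log10 q was 46.2 (quartiles 32.5 and 57.5) with BG4 and 28.1 (12.3 and 42.9) without. The median width was 1447 bp (1108 and 1788) against 1060 bp (687 and 1422). The median fold was 8.03 in both (6.47 and 9.80 with BG4, 6.10 and 9.99 without). Accordingly, 32.7% of all BG4 peaks (31.1 to 34.3) lay on the 3000 H3K4me3 peaks of highest −log10 q, 29.3% (27.8 to 30.9) on the 3000 widest, and 12.3% (11.2 to 13.5) on the 3000 of highest fold. Each of these sets is 3000 of the 18596 H3K4me3 peaks.

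The H3K4me3 peaks of highest −log10 q included regions with and without a called BG4 peak. Of the first 100, 57 carried a siControl BG4 peak, 65 a siBAZ2A peak and 70 a siBAZ2B peak. Over all H3K4me3 peaks these shares were 16.0%, 21.1% and 23.4%. Of the first 100 by fold, 19 carried a siControl BG4 peak (12.5 to 27.8), near the 16.0% of all H3K4me3 peaks. The peak of highest −log10 q, chr2:739956-741146 (−log10 q 191, fold 13.0), held a BG4 peak at chr2:739923-741024 (fold 13.7), and the 2 summits were 1 bp apart. At chr19:36266014-36267106 (−log10 q 104, fold 14.1) the BG4 peak had a fold of 8.73, and its summit lay 56 bp away. By contrast, chr1:28699-29754 (−log10 q 121, fold 16.5), chr20:1757278-1758146 (96.6, fold 17.6) and chr19:40596114-40597241 (93.3, fold 13.0) overlapped no BG4 peak in any of the 3 lists. The H3K4me3 peak at chr14:19649660-19651031 (−log10 q 104) lacked BG4 in siControl and siBAZ2A and had it in siBAZ2B. These loci were ranked by −log10 q after the values had been seen.

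At the very top of both lists the same loci stood together. The BG4 peak of highest fold, chr12:133841419-133842038 (fold 23.6), matched the H3K4me3 peak of rank 2 at chr12:133841412-133842014 (fold 21.7). The BG4 peak of rank 2, chrX:155259895-155260510 (22.8), matched the H3K4me3 peak of rank 3 at chrX:155259889-155260496 (20.9), with summits 19 bp apart. The H3K4me3 peak of rank 1, chr3:73159814-73160319 (fold 23.4), enclosed the BG4 peak of rank 6 at chr3:73159853-73160318 (21.4). The H3K4me3 peaks covered 596 of 620, 602 of 616 and 466 of 466 bp of these 3 BG4 peaks. The BG4 folds there were 23.03, 21.7 and 18.1 in siBAZ2A and 22.9, 20.4 and 19.01 in siBAZ2B. Next in the sum of ranks came chr1:31904553-31905128 (BG4 fold 20.4, rank 7, H3K4me3 fold 15.8, rank 68) and a pair on an unplaced contig (BG4 fold 12.5, H3K4me3 fold 16.3). Repeats and regions of unusually high signal were not filtered out here. Whether such signal adds to these loci, or to other named loci, was not tested.

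Below this small set most strong peaks of one list were not among the strongest of the other, although more of them were than over all pairs. Of the 100 BG4 peaks of highest fold, 86 lay on H3K4me3, against 89.9% of all BG4 peaks. Of these 86, 25 (29.1%, 20.5 to 39.4) were paired with one of the highest 10% of H3K4me3 peaks by fold, against 8.78% (7.82 to 9.85) of all 2996 pairs. With one of the 100 highest H3K4me3 peaks, 5 of the 86 were paired (5.81%, 2.51 to 12.9), against 19 of all pairs (0.634%, 0.406 to 0.988). Among the 10 H3K4me3 peaks of highest fold, 5 carried BG4, against 16.0% of all H3K4me3 peaks. Besides the 3 above these were chr21:48118940-48119422 (H3K4me3 fold 18.3), with a BG4 fold of 9.97, and chr19:41945204-41945934 (18.1), with a BG4 fold of 10.4. The other 5 had no siControl BG4 peak. Of these, chr1:247289628-247290334 (18.8), chr1:247334705-247335443 (18.4) and chr9:95639774-95640444 (18.2) had none in either knockdown list. The peak at chr1:142890453-142891147 (18.8) had BG4 in both knockdown lists, and chr2:232276688-232277288 (18.2) had it in siBAZ2B.

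The heights of the 2 marks were weakly related where they overlapped. Across the 2996 pairs, Spearman's rho between BG4 fold and H3K4me3 fold was 0.19, and between the widths 0.25. These are correlations across sites within 1 pair of lists and carry no p. The median BG4 fold was 6.61 (quartiles 5.41 and 7.86) on the quintile of paired H3K4me3 peaks with the lowest fold and 7.57 (6.34 and 9.16) on that with the highest, so the quartile ranges overlapped widely. By −log10 q of the H3K4me3 peak the median BG4 fold went from 6.61 to 7.84. BG4 fold and H3K4me3 width were unrelated (rho 0.01). The presence of a BG4 peak thus rose with the −log10 q and width of the H3K4me3 peak. Where a BG4 peak was present, its fold had a rho of 0.22 with that −log10 q. Shares of peaks and relations of fold have no common scale, so their steepness was not compared.

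The knockdown BG4 lists gave a rough scale for that weak relation. They come from cells with another treatment, so any effect of the knockdown is part of that scale. No second H3K4me3 list was available to show how well the H3K4me3 fold repeats. At the 2202 paired BG4 peaks found in all 3 BG4 lists, siControl BG4 fold had a rho of 0.65 with siBAZ2A BG4 fold and 0.56 with siBAZ2B BG4 fold. With H3K4me3 fold the rho at the same peaks was 0.23. The knockdown lists gave similar values against H3K4me3, with 0.15 in siBAZ2A (3954 pairs) and 0.21 in siBAZ2B (4397 pairs). For widths, rho was 0.59 and 0.51 between siControl and the knockdown BG4 lists at peaks on H3K4me3. All points share the siControl run, and each fold is also bounded below by the threshold of the peak caller.

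**Figure D3:**
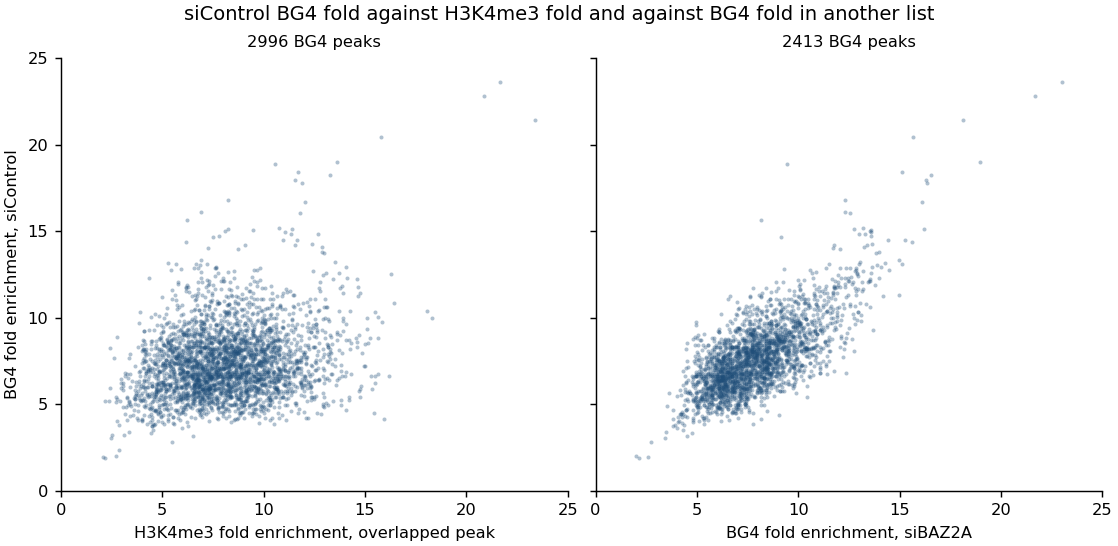
Each point is a siControl BG4 peak on H3K4me3, with its fold enrichment (y axis) against the fold of the overlapped H3K4me3 peak (left, 2996 peaks) and against the fold of the overlapping siBAZ2A BG4 peak (right, 2413 peaks). The left cloud is nearly round (rho 0.19), with 3 loci above 20 on both axes, and the right cloud follows the diagonal (rho 0.65).

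The heights were more closely related where the 2 peaks filled the same space. Among the 327 pairs whose overlap made up at least 70% of their union, rho between the folds was 0.40. It was 0.22 for the 754 pairs with 50 to 70%, 0.07 for the 1536 pairs with 25 to 50%, and -0.06 for the 379 pairs under 25%. Pairs with 50% or more were 36.1% of all (34.4 to 37.8).

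Some peaks that were strong in one list were paired with weak peaks of the other. The pairs named here were chosen for this. They have a BG4 peak in the highest 10% by fold and the weakest H3K4me3 fold, or the reverse. On chr19:1861818-1864822, a broad H3K4me3 region of 3005 bp with a fold of 3.91, the BG4 peak at chr19:1863530-1864282 reached a fold of 10.3 and rank 275. At chr1:156084087-156086467 (H3K4me3 fold 4.35, 2381 bp) the BG4 fold was 12.3, and the summits were 58 bp apart. Folds of 10.1 to 10.2 with H3K4me3 folds of 4.42 to 4.82 were found at chr1:143912958-143914185, chr16:67595853-67596758 and chr5:126112366-126112926. These 5 H3K4me3 peaks were 2359 to 3005 bp wide, and all 5 BG4 peaks were also in both knockdown lists. In the opposite direction, high H3K4me3 peaks at chr14:79780437-79780891 (fold 15.9, 455 bp), chr12:7013887-7014546 (12.2, 660 bp) and chr11:74021838-74022815 (12.1, 978 bp) carried BG4 peaks with folds of 4.13 to 4.23. These 3 BG4 peaks overlapped none in either knockdown list. The pairs at chr12:114403438-114404469 (H3K4me3 fold 12.8, BG4 fold 4.42) and chr2:69663773-69664984 (12.6 and 4.46) had a BG4 peak in siBAZ2A and none in siBAZ2B.

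BG4 summits lay in the body of the H3K4me3 region, but were spread more evenly over it than the summits of the mark. The BG4 summit was inside the paired H3K4me3 peak in 99.0% of pairs (98.6 to 99.3), and the H3K4me3 summit was inside the BG4 peak in 82.8% (81.5 to 84.2). The central 50% of the H3K4me3 peak held 70.1% of BG4 summits (68.4 to 71.7) and 91.2% of H3K4me3 summits (90.1 to 92.1). An even spread would give 50%, but is not a neutral reference. In 77.2% of pairs the BG4 peak lay wholly inside the H3K4me3 peak, which keeps its summit away from the borders. Each H3K4me3 summit was also called within its own peak. How far peak widths and calling alone set these shares was not tested. When the region was divided into 10 equal bins from left to right, bin 5 held 15.4% of BG4 summits (14.1 to 16.7), bin 3 held 12.0% (10.9 to 13.2), bin 1 held 1.90% (1.47 to 2.46) and bin 10 held 1.74% (1.33 to 2.27). H3K4me3 summits reached 25.2% in bin 5 (23.7 to 26.8) and 0.100% in bin 1 (0.0341 to 0.294). The BG4 summit was closer to the middle of the region than the H3K4me3 summit in 29.8% of pairs (28.2 to 31.5). Its distance to the nearer border of the region had a median of 437 bp (quartiles 279 and 610). The strand of transcription was not used, so left and right are those of the genome. There were 1575 BG4 summits left of the H3K4me3 summit, 1408 right of it and 13 on the same base.

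Most G4 summits lay close to the H3K4me3 summit, and their number levelled off at 250 to 400 bp before it fell again. Of the pairs, 28.1% (26.5 to 29.7) had their summits at most 50 bp apart, 44.5% (42.7 to 46.3) at most 100 bp, 69.6% (67.9 to 71.2) at most 250 bp and 91.5% (90.4 to 92.4) at most 500 bp. Counted per 50 bp, the pairs fell from 829 below 50 bp to 142 between 250 and 300 bp. They then stayed level, with 152 and 149 in the next steps up to 400 bp, and fell to 112 and 101 in those up to 500 bp. Pairs whose H3K4me3 peak was wider than the median of the pairs and those with a narrower one were about equally many from 250 to 400 bp, with 70 and 72, 84 and 68, and 78 and 71 in the 3 steps. Below 50 bp the numbers were 371 wider and 458 narrower, and between 400 and 450 bp they were 70 and 42. In pairs from the highest decile of H3K4me3 fold the numbers were 104 below 50 bp, 9, 9 and 8 in the steps from 250 to 400 bp, and 2 between 400 and 450 bp.

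**Figure D4:**
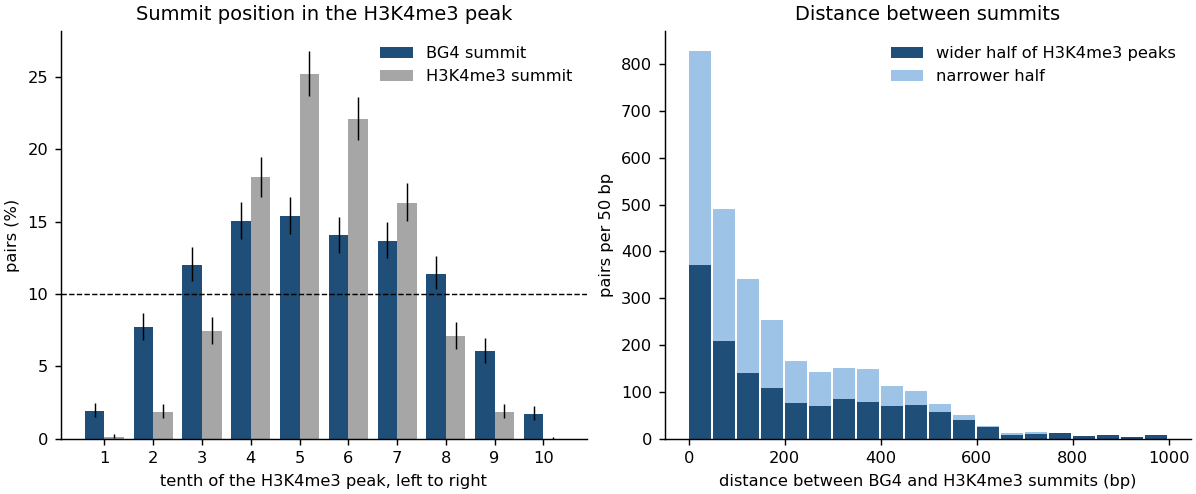
Left, share of pairs (percent) with the BG4 or the H3K4me3 summit in each of 10 equal bins across the H3K4me3 peak, with 95% Wilson intervals and an even spread of 10% dashed. Peak widths and calling also shape these positions, so the dashed line is not a neutral reference. Right, number of pairs per 50 bp of distance between the summits, split at the median width of the paired H3K4me3 peaks; the counts fall to 142 at 250 to 300 bp and stay near 150 up to 400 bp.

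The pairs with distant summits had broad and low H3K4me3 peaks. Overlapping peaks must be wide for their summits to lie far apart. How far this sets the widths, distances and central shares that follow was not tested. The 259 pairs with summits at least 500 bp apart had a median H3K4me3 width of 1818 bp and a median H3K4me3 fold of 6.33, against 1374 bp and 8.34 in the 829 pairs under 50 bp. Their BG4 peaks were wider (median 712 bp against 605 bp) and of lower fold (6.48 against 7.48). The H3K4me3 summit stayed in the central 50% of its peak in 83.0% of the distant pairs and 89.4% of the close ones, while the BG4 summit was there in 37.1% and 88.4%. Over the widths of H3K4me3 peaks, the median summit distance went from 74.5 bp (quartiles 30 and 154) in the narrowest quintile of pairs to 169 bp (53.5 and 453) in the widest. Over their folds it went from 152 bp (48.8 and 414) in the lowest quintile to 84 bp (31 and 180) in the highest.

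The distance between the 2 marks was larger than the distance between BG4 summits of control and knockdown cells. The latter includes any effect of the knockdown, and the H3K4me3 summit has no second list to compare with. At the 2202 BG4 peaks present in all 3 BG4 lists, the BG4 summit was a median of 118 bp from the H3K4me3 summit (quartiles 40 and 305). The siControl summit was 63 bp from the siBAZ2A summit (27 and 125) and 67 bp from the siBAZ2B summit (28 and 136) at the same peaks. All these distances need overlapping peaks, and H3K4me3 peaks were mostly wider than BG4 peaks, which leaves room for larger distances. How far width alone sets the difference was not tested. Most BG4 peaks with distant summits overlapped a knockdown BG4 peak, and the distances that follow cover only those. Among the 514 pairs with 300 to 500 bp between BG4 and H3K4me3 summits, the siBAZ2A BG4 summit was a median of 77 bp away (37 and 174, 411 peaks). The siBAZ2B summit was 78 bp away (30 and 162, 426 peaks). In the 259 pairs with 500 bp or more these distances were 75 bp (29.5 and 162, 207 peaks) and 84 bp (29 and 169, 217 peaks). In pairs under 50 bp they were 50.5 bp and 51 bp.

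**Figure D5:**
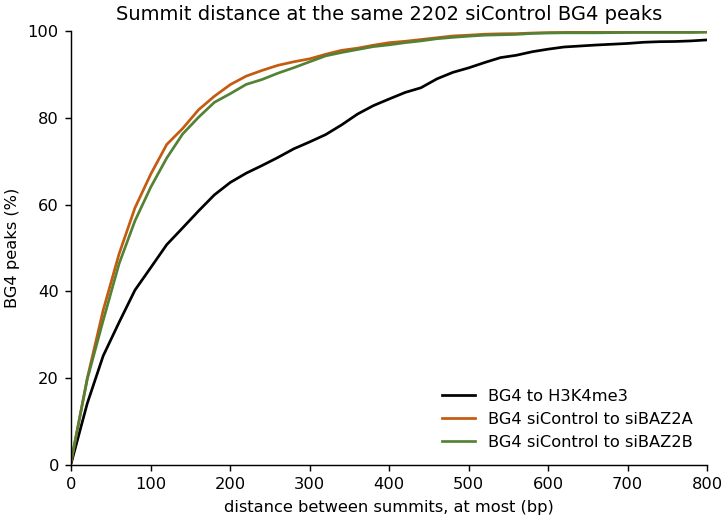
Share of the same 2202 siControl BG4 peaks (y axis, percent) whose summit is within a given distance (x axis, bp) of the H3K4me3 summit or of the BG4 summit in a knockdown list. Medians are 118 bp for H3K4me3, 63 bp for siBAZ2A BG4 and 67 bp for siBAZ2B BG4.

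Nearly every G4-bearing region held a single G4 peak. Of the 2983 H3K4me3 peaks with BG4, 2966 held 1 BG4 peak, 17 held 2 (0.570%, 0.356 to 0.911) and 0 held 3 or more. Regions with 2 were wide, with a median of 1956 bp (quartiles 1637 and 2468) against 1445 bp (1107 and 1784.5) for those with 1. Of the 17, 13 belonged to the widest quintile of all H3K4me3 peaks, as did 1122 of the 2966 with 1 BG4 peak. A region must also be wide to hold 2 separate peaks, and how far this sets the difference was not tested. Chromosome 17 had 5 of them (29.4%, 13.3 to 53.1) and chromosome 19 had 4 (23.5%, 9.56 to 47.3), where these chromosomes held 10.3% and 10.7% of all 2983 BG4-bearing H3K4me3 peaks. The summits of the 2 BG4 peaks were 483 to 2333 bp apart (median 1098 bp), and in 10 of the 17 regions the H3K4me3 summit lay between them. These BG4 peaks were weak, since 32 of the 34 had a fold below the list median of 7.05.

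The widest of these regions, chr17:1617807-1620878, held BG4 folds of 3.36 and 5.19, with summits 1365 bp apart. The region chr17:7737201-7740175 held folds of 4.44 and 3.35, the first at its left border and the second 179 bp from the H3K4me3 summit. All of these 4 BG4 peaks had counterparts in both knockdown lists. At chr19:51868755-51871661 the folds were 4.82 and 6.06, and the weaker peak was in neither knockdown list. At chr21:38738084-38740987 (4.90 and 5.99) a single siBAZ2B peak with a fold of 6.35 spanned both siControl peaks, and siBAZ2A had none. At chr1:27189448-27191915 the 2 BG4 peaks (4.72 and 5.21) sat at opposite borders, 2333 bp apart. The reverse case, a BG4 peak across 2 H3K4me3 peaks, occurred 4 times, at chr17:38108851-38109738, chr22:20378620-20379514, chr6:32145153-32146396 and once on chromosome M.

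The 5 widest H3K4me3 regions held at most 1 G4 peak each. The widest H3K4me3 peak, chr15:66993173-66997339 (4167 bp, fold 2.72), held 1 BG4 peak of 1108 bp and fold 5.11 near its left end, 176 bp from the H3K4me3 summit. The second, chr15:99190357-99194097 (3741 bp), also held 1, of fold 6.81. The next, chr17:36102156-36105881 and chr5:107004755-107008440, held none in any list, and chr17:7744882-7748465 held none in siControl and had one in both knockdown lists. The 4 widest BG4 peaks were on chromosome M (3629 and 2711 bp, folds 1.88 and 2.01) and on contigs of chromosomes 17 and 7 (3002 and 2531 bp, folds 4.41 and 5.17), and the fifth was chr1:161424151-161425992 (1842 bp, fold 4.74). All 5 overlapped a called H3K4me3 peak. On chromosome M these H3K4me3 peaks had low folds of 2.16 and 2.70, and whether they reflect the mark or background signal was not tested.

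The remaining 336 BG4 peaks, 10.1% of the list (9.11 to 11.2), had no H3K4me3 overlap, and as a group they were weaker and narrower. Their median fold was 5.79 (quartiles 4.91 and 7.11) against 7.16 (6.02 and 8.48) on H3K4me3, and their median width was 413 bp (340 and 536) against 617 bp (467 and 777). Some were nonetheless among the highest of the list. The share of BG4 peaks on H3K4me3 was 71.6% in the lowest decile of BG4 fold (66.5 to 76.1), 96.7% in the ninth (94.2 to 98.1) and 92.5% in the highest (89.2 to 94.9). Of the 10 BG4 peaks of highest fold, 5 were off H3K4me3, among them the chromosome Y peak described below.

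On chromosomes 1 to 22 and X the strongest BG4 peaks off H3K4me3 were chr14:106641447-106641931 (fold 22.4), chr22:23161861-23162361 (22.3), chr17:22020536-22020990 (20.2), chr13:110076336-110076812 (19.002) and chr14:107169777-107170239 (16.3). The nearest H3K4me3 peak was 494, 250, 183, 155 and 82.1 kb away. All 5 were in both knockdown lists, with folds of 14.6 to 23.3 in siBAZ2A and 15.1 to 23.1 in siBAZ2B. The fifth BG4 peak of the whole list, chrY:59362901-59363529 (22.3), was also off H3K4me3. Its fold and its −log10 q of 168 were close to those of the BG4 peak of rank 2 on chromosome X (22.8 and 171). Whether these 2 peaks share sequence was not tested, so they may not be separate sites. Of the 299 such peaks on chromosomes 1 to 22 and X, 13 were within 1 kb of an H3K4me3 peak (4.35%, 2.56 to 7.30), 103 within 10 kb (34.4%, 29.3 to 40.0) and 234 within 100 kb (78.3%, 73.2 to 82.6), with a median distance of 19.9 kb. The other 37 were on chromosome Y and contigs. BG4 peaks off H3K4me3 overlapped a siBAZ2A BG4 peak in 41.7% of cases (36.5 to 47.0), against 80.5% (79.1 to 81.9) on H3K4me3, and a siBAZ2B peak in 61.6% (56.3 to 66.6) against 83.6% (82.2 to 84.9). Where such a peak was found again in a knockdown list, the median summit distance was 52 bp in siBAZ2A (140 peaks) and 63 bp in siBAZ2B (207 peaks). On H3K4me3 these medians were 64 and 68 bp. The BG4 peaks off H3K4me3 were narrower, which limits the distance between overlapping peaks, and the part of width was not tested.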

How the data were processed

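BG4 and H3K4me3 CUT&Tag peaks of siControl A549 cells were analysed from the lists the authors deposited, 1 per group of 4 replicates. MACS2 2.1.4, bedtools, SAMtools 1.15.1, Picard and Bowtie2 2.4.5 are listed in the submitters' processing notes, as are dm6 (Drosophila) and hg19 (human). Per the labels, the lists keep peaks seen in 2 or more replicates, with the largest replicate list as the base of the intersection. The fold (a ratio) and the −log10 q in the deposited lists are therefore those of 1 run. Drosophila chromatin was added to the samples, per the labels' protocols, but the labels do not say whether any value was scaled by it. Read depth was not analysed here. The summit is the peak start plus the deposited offset.

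Overlaps, partners, medians, Spearman's rho and Wilson intervals were computed with SciPy 1.17.1, statsmodels 0.14.6, NumPy 2.4.6 and pandas 2.3.3 under Python 3.11.15, and figures with matplotlib 3.10.9. The pairing was tested on simulated lists. Peaks of 1 list are not replicates, so no test was run. Coordinates are 1-based. Members, rules and alternatives were chosen with earlier results of these data known. Named loci are the highest by fold in either list, on and off H3K4me3, the widest, those with the most BG4 peaks, the lowest rank sums and the most unequal pairs. The loci ranked by −log10 q, the deciles, the strata and the background shares were chosen after seeing the data.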

Additional observations from a re-analysis of the deposited data

How the results depend on the processing

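No paired analysis was possible because the 4 replicates of a group come as 1 merged list, which also prevents leaving one out. Requiring 50% of the BG4 peak to be covered, requiring its summit inside the H3K4me3 peak, taking the nearest H3K4me3 summit as partner, or leaving out chromosome M, chromosome Y and contigs kept all 7 results within their 95% intervals. Merging H3K4me3 peaks within 1 kb moved only the share of H3K4me3 peaks with BG4, to 16.6%. With −log10 q of at least 5 in both lists, 91.0% of BG4 peaks lay on H3K4me3, 14.4% of H3K4me3 peaks had BG4, rho of the folds was 0.23 and 0.314% of BG4-bearing regions held several BG4 peaks. With the stronger 50% of BG4 peaks these values were 94.6%, 8.48%, 0.14 and 0%, the median summit distance was 103 bp, 73.0% of summits were central and rho of the widths was 0.29. With the stronger 50% of H3K4me3 peaks, 44.9% of BG4 peaks lay on them, rho of the folds was 0.086, 0.268% of regions held several, the distance was 102 bp, 74.7% of summits were central and rho of the widths was 0.16. With the 3000 peaks of highest fold in each list, 12.97% of either list overlapped the other, 0% held several, the distance was 73 bp, 77.6% of summits were central and rho of the widths was 0.092. Fewer peaks are kept in these settings by construction. In the alternatives chosen after seeing the data, the highest decile of H3K4me3 by −log10 q carried BG4 in 25.8% (stronger 50% of BG4 peaks) to 40.7% and the lowest in 0.860% to 3.96%. By width these shares were 17.3% to 33.2% and 1.67% to 5.13%. By fold, where the main shares were 11.3% in the lowest and 14.1% in the highest decile, the order turned with −log10 q of at least 5 (14.5% and 12.7%) and was level after merging (14.6% and 14.5%), and with the stronger 50% of BG4 peaks it widened (3.06% and 9.09%). Without depth per replicate, absence of a BG4 peak cannot be told apart from a site below the calling threshold.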

Other observations

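G4-bearing H3K4me3 peaks followed one another along the chromosomes. On chromosomes 1 to 22 and X, an H3K4me3 peak carried BG4 in 24.5% of cases (710 of 2894) when the preceding H3K4me3 peak did and in 14.5% (2186 of 15030) when it did not. Without chromosomes 17 and 19, which have high BG4 shares, the values were 21.9% (20.3 to 23.7) and 13.4% (12.8 to 14.0). Within the highest quintile of −log10 q they were 43.5% (39.9 to 47.1) and 32.3% (30.6 to 34.0). H3K4me3 peaks up to 1 kb from the preceding one carried BG4 in 7.54% (5.73 to 9.85), and they were narrow (median 778 bp) and of low −log10 q (median 12.6). Those with a gap of 5 to 20 kb carried it in 21.5% (20.2 to 22.9), and those with a gap over 100 kb in 12.2% (11.4 to 13.0). Relations between neighbours were examined after seeing the data and were not tested.

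Peaks outside chromosomes 1 to 22 and X numbered 116 in the BG4 list and 649 in the H3K4me3 list. The alternative haplotypes of chromosome 6 held 57 of these BG4 peaks, 54 of them on H3K4me3, and 526 of the H3K4me3 peaks. Unplaced contigs held 31 BG4 peaks, 7 of them on H3K4me3, and 34 H3K4me3 peaks.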
